A study of Mus musculus with 3 samples.

Results

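The oxidative phosphorylation genes of a mouse ovarian array were described here: 39 gene names with 44 probes, of 18118 gene names with 20371 probes on the array. A probe was a member if the gene name in the array file began with Nduf, Sdh (a to d), Uqcr, Cox followed by a digit, or Atp5, or was Cycs or Cyc1. Cells came from the ovarian surface epithelium, the single layer of cells that covers the ovary, of superovulated C57/Bl6 mice. Each of 3 cultures was divided. The epithelial part stayed in 2.5% fetal bovine serum, and the mesenchymal part was held in 15% serum for 1 week, which induced an epithelial to mesenchymal transition. Serum and phenotype changed together in every culture and cannot be told apart. The epithelial and mesenchymal RNA of a culture shared each of 2 arrays, with Cy3 and Cy5 exchanged between them, which gave 6 arrays and n = 3 cultures. How many mice made up a culture is not given in the sources used here.

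Oxidative phosphorylation takes place in the inner mitochondrial membrane. Complex I (NADH dehydrogenase, the Nduf genes) and complex II (succinate dehydrogenase, the Sdh genes) pass electrons to coenzyme Q, complex III (the Uqcr genes and Cyc1) passes them to cytochrome c (Cycs), and complex IV (cytochrome c oxidase, the Cox genes) passes them to oxygen. Complexes I, III and IV pump protons, and complex V (ATP synthase, the Atp5 genes) uses the proton gradient to make ATP. The transcription factors NRF-1, GABP (of the ETS family) and YY1 are textbook regulators of nuclear genes for these subunits.

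The members that differed between the cell states by the test described below were Ndufaf1, Ndufa7 and Atp5k, and the 150 bases before the start of each are shown, because they are the only member promoters to which a called difference attaches. They come from RefSeq on GRCm38.p6, 5′ to 3′, with any match to the NRF-1 core GCATGCGC, the ETS core CCGGAAGT or the YY1 core AAGATGGC in capitals, on both strands. The Ndufa7 stretch is chr17:33824422-33824571 (plus strand), the Ndufaf1 stretch is chr2:119662835-119662984 (minus strand), and the Atp5k stretch is chr5:108434400-108434549 (minus strand). Ndufa7 has 2 listed starts, and the first listed is shown.
Ndufa7: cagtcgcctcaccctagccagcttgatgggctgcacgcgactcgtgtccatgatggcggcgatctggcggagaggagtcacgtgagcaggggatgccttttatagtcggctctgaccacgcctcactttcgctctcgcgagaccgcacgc
Ndufaf1: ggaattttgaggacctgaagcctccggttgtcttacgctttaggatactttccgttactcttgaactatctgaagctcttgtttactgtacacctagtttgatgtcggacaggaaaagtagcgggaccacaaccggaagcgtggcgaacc
Atp5k: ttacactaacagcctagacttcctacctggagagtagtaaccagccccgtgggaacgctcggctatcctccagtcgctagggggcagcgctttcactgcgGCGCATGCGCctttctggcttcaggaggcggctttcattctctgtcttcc

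Only the Atp5k stretch held a match, to the NRF-1 core on both strands at overlapping positions. Over the 300-base window of all 32851 listed promoters (250 bases before to 50 after the start), the NRF-1 core was found in 2.71%, the ETS core in 3.89% and the YY1 core in 2.75%. Of the 32 windows of the 30 member genes that matched the promoter table, 7 held the NRF-1 core, 2 the ETS core and 5 the YY1 core. After the sequences of these promoters had been read, 2 looser motifs were also searched because they match them: the shorter CCGGAAG, found in the windows of Ndufaf1 and Atp5k, in 7 of the 32 member windows and in 8.86% of all windows, and ATGGCGGC, found in the Ndufa7 window, in 3 member windows and in 2.24% of all windows. Since these 2 were fitted to the sequences shown, their matches there carry no weight. A match describes letters in a window and not a bound site.

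Across the whole array, arrays of the same dye orientation correlated at 0.81 to 0.93 once turned to mesenchymal over epithelial, while pairs with the dyes the other way round correlated at -0.53 to -0.14. The SD over all probes was 0.48 for the dye effect and 0.31 for the log2 ratio after averaging both orientations. The dye orientation of each array was taken from the array's own name. All 14 probes of the ovarian surface epithelium markers were above the level that 95% of the negative control spots stayed under, and 6 of them fell in mesenchymal cells and none rose, with Gpm6a at -2.98 ± 0.22 and Msln (mesothelin) at -2.07 ± 0.27 on the log2 scale (SD, n = 3). Of 14 granulosa probes 1 fell (Inhba, -0.88), of 9 stroma and muscle probes 2 fell (Ogn, -2.05, and Pdgfra, -0.84), and of 7 endothelial and leukocyte probes none passed the test. Over all probes tested 5.66% fell and 5.6% rose. Inhba was above 0 on 3 arrays and below 0 on 3, Pdgfra above 0 on 2 and below 0 on 4. Ogn was below 0 on all 6 arrays. The part of other cell types in the results below was not tested. These are bulk samples, in which fewer cells of a type and less RNA per cell cannot be told apart.

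Few respiratory chain probes passed the test. Of the 44 member probes, 3 rose in mesenchymal cells, none fell and 41 did not pass the test (limma, Benjamini-Hochberg adjusted p under 0.05 over all 20185 probes tested), which does not show that those 41 were level. The share that rose, 6.82%, was near the 5.6% of all probes that rose, and 5.66% of all probes fell. The median log2 ratio of the members was 0.08, against -0.0032 for all probes, with 31 means above 0 and 13 below. By culture the member median was 0.13, 0.06 and 0.02 for cultures 1, 2 and 3, and 19 probes were above 0 in all 3 cultures. The means ran from -0.21 for a Cox5a probe to 0.52 for Ndufaf1. The count of risen members depended on the cultures used, as did the count over the whole array. Without culture 3 none passed, beside 376 of all 19271 probes tested that rose. Without culture 2 Ndufaf1 alone passed, beside 524 of 18140 that rose. Without culture 1 there were 13 that rose and 4 that fell, beside 3271 and 2604 of 18192. Among the members in that fit, adjusted p followed the size of the mean alone. Cox7a2 was called there with cultures 2 and 3 at 0.001 and 0.52. The counts without culture 1 given below are from the same fit.

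**Figure D1:**
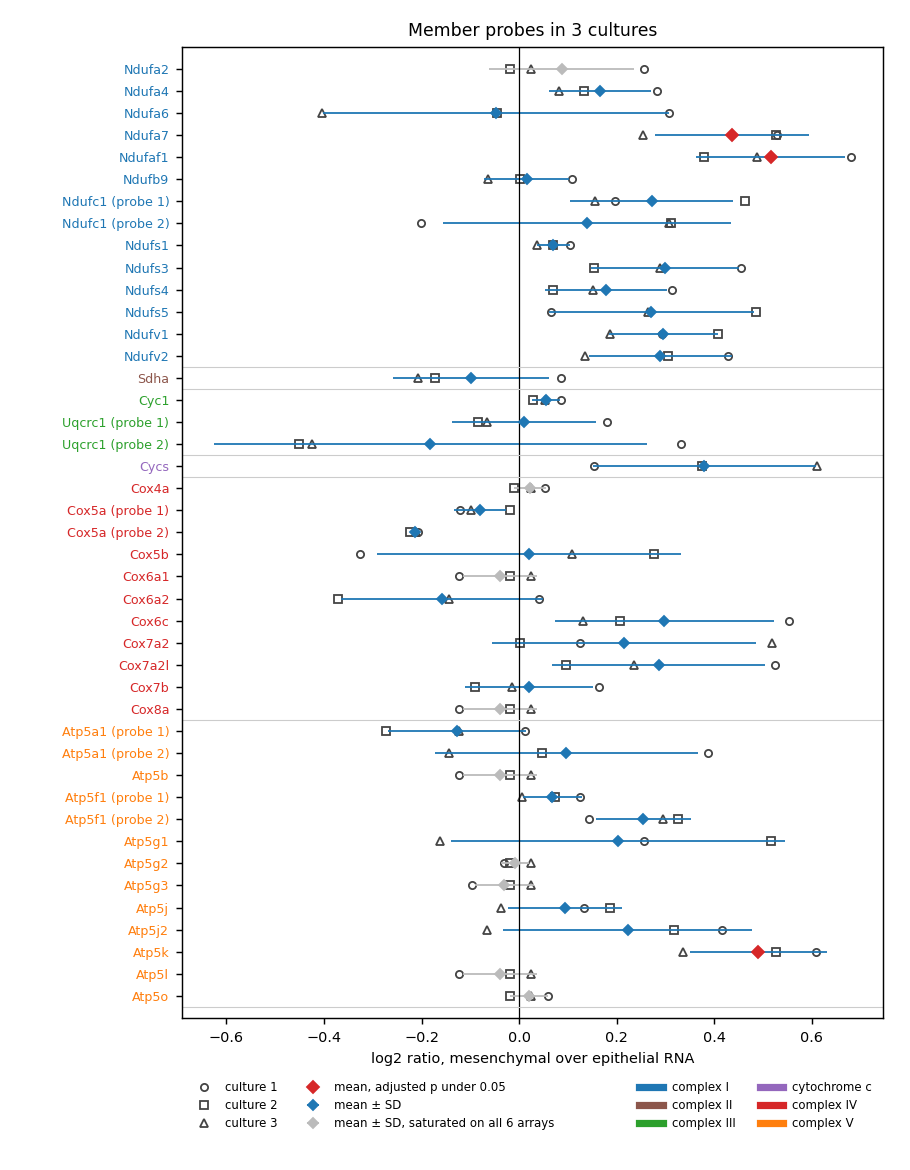
Log2 ratio of mesenchymal over epithelial RNA (x axis) for 43 of the 44 member probes (y axis, label coloured by complex), with open symbols for the 3 cultures, diamonds for their mean and bars for 1 SD. Ndufaf1, Ndufa7 and Atp5k (red) passed the test, and the grey probes were saturated for 1 or both RNAs on all 6 arrays.

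Brightness limits what these probes can show. A saturated spot is at the scanner's ceiling, so a ratio between ceiling values is compressed. Of the 44 probes, 23 (52.3%) were saturated on at least 1 array, against 3.46% of all probes. Atp5b, the catalytic beta subunit of ATP synthase, Atp5l, Cox6a1 and Cox8a were saturated for both RNAs on all 6 arrays. They gave the same log2 values, -0.12, -0.02 and 0.02 in the 3 cultures, which are the ceiling and not the genes, so they have no measured fold. Atp5g2, Atp5g3, Atp5o, Cox4a and Ndufa2 were saturated for the mesenchymal RNA on all 6 arrays and for the epithelial RNA on 3 to 5, so on those arrays both RNAs were at the ceiling, and their means give no measured fold. Among the 21 member probes saturated on no array, 1 rose (Ndufaf1), and the median log2 ratio was 0.18. Of all probes saturated on no array 5.51% rose.

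**Figure D2:**
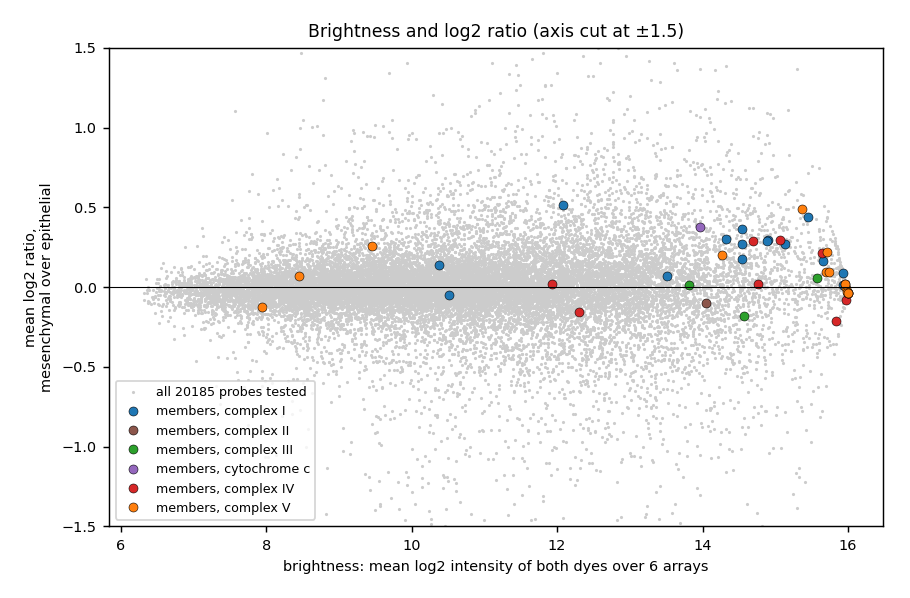
Mean log2 ratio (y axis, cut at 1.5 either way) against brightness, the mean log2 intensity of both dyes over 6 arrays (x axis), for all 20185 probes tested in grey and the members coloured by complex. The members crowd at the bright end. Those saturated for both RNAs on all 6 arrays lie together just below 0, while those saturated on some arrays run from -0.21 to 0.49.

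Complex I had 15 probes for 14 genes, of which 14 had a mean above 0 and 2 passed the test, with a median log2 ratio of 0.27. That median was -0.10 with mesenchymal RNA in Cy5 and 0.61 with it in Cy3. Over all 20185 probes tested, 9910 means were above 0 and 5.6% rose. Without Ndufaf1, 1 of the 14 remaining complex I probes rose (7.14%, near that share), and their median was 0.22. Of the 15 complex I probes 5 were saturated on at least 1 array, against 8 of 11 in complex IV and 9 of 13 in complex V. Ndufaf1 is an assembly factor for the complex and no part of the finished enzyme. Its 6 array values were 0.77, 0.24 and 0.30 with mesenchymal RNA in Cy5 and 0.59, 0.52 and 0.67 with it in Cy3, for cultures 1 to 3. All 6 arrays were above 0, in both orientations, and no spot was saturated. The mean over cultures was 0.52 ± 0.15 (SD, n = 3; 95% interval 0.31 to 0.72; limma adjusted p = 0.0144). The call was lost without culture 3 (adjusted p = 0.108).

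Ndufa7 is an accessory subunit of complex I. Its values were -0.01, 0.19 and -0.22 with mesenchymal RNA in Cy5 and 1.07, 0.86 and 0.73 with it in Cy3. The orientations did not overlap, and the rise is a mean of arrays near 0 and arrays well above it. The mean was 0.44 ± 0.16 (SD, n = 3; limma adjusted p = 0.0267), and its mesenchymal spot was saturated on 3 arrays. The call was lost with a variance trend and robust estimation together (adjusted p = 0.0585), without culture 2 (0.142) and without culture 3 (0.0767).

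The core subunits of complex I described here, which take part in passing electrons from NADH through the iron-sulfur clusters, did not pass the test. Ndufv1, which binds NADH, was at 0.30 ± 0.11, and its culture values were 0.29, 0.41 and 0.19. Ndufs1, the largest iron-sulfur subunit, was at 0.07 ± 0.03 (95% interval -0.10 to 0.24), and all 3 cultures were above 0. On every array with mesenchymal RNA in Cy5, Ndufv1 and Ndufs1 were below 0, and on every array with it in Cy3 above 0. Ndufs3 was above 0 on all 6 arrays at 0.30 ± 0.15 (adjusted p = 0.0833). The probes of Ndufc1 were at 0.27 ± 0.17 and 0.14 ± 0.30, and the second was below 0 in culture 1. Ndufs5 was at 0.27, but the gene ID its file gives now belongs to a pseudogene, so its identity is uncertain. Ndufa4, kept in complex I by its name, is now assigned to complex IV, and was at 0.17 ± 0.10. Ndufv2, a partner of Ndufv1, and Ndufs4, an accessory subunit, were at 0.29 ± 0.15 and 0.18 ± 0.12 and above 0 in all 3 cultures. Their means were -0.03 and -0.36 with mesenchymal RNA in Cy5, and 0.61 and 0.72 with it in Cy3. Ndufa6 was the one probe of complex I with a mean below 0, at -0.05 ± 0.36, and its cultures ran from 0.31 to -0.40. Ndufb9, saturated on some arrays, was at 0.02 ± 0.09.

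Complex II was represented under its own name by Sdha alone, the flavoprotein that oxidises succinate. Its cultures were at 0.09, -0.17 and -0.21, a mean of -0.10 ± 0.16 (95% interval -0.31 to 0.11), so a shift of that size in either direction was not separated from 0. In complex III, Cyc1, the haem subunit that hands electrons to cytochrome c, was at 0.06 ± 0.03 with some spots saturated, and the core protein Uqcrc1 had probes at 0.01 ± 0.15 and -0.18 ± 0.44. Both Uqcrc1 probes were above 0 in culture 1 and below 0 in cultures 2 and 3. Cytochrome c itself (Cycs) was higher in each culture, at 0.15, 0.37 and 0.61, but its mean of 0.38 ± 0.23 did not pass the test (limma adjusted p = 0.0713). On single arrays Cycs was at -0.78, -0.98 and -0.69 with mesenchymal RNA in Cy5 and at 1.09, 1.73 and 1.91 with it in Cy3, so the orientations lay on opposite sides of 0.

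None of the 11 complex IV probes passed the test, and their median log2 ratio was 0.02. Cox4a, the file's name for Cox4i1, was at 0.02, which is no measured fold because of saturation. Cox6a2, an isoform known from heart and skeletal muscle, was at -0.16 ± 0.21, and its counterpart Cox6a1 had no measured ratio. Cox7a2 was at 0.22 ± 0.27, and Cox7a2l, which is involved in supercomplexes, at 0.29 ± 0.22. The Cox5a probes were at -0.08 ± 0.05 and -0.21 ± 0.01, and the second was below 0 on all 6 arrays, but both were saturated on some arrays. Cox5b was at 0.02 ± 0.31, with culture 1 below 0 and cultures 2 and 3 above it, and Cox7b at 0.02 ± 0.13. Only 3 of the 11 probes were saturated on no array.

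In complex V, 1 of 13 probes rose (7.69%, beside 5.6% of all probes) and the median was 0.07. Atp5k, the e subunit of the membrane part of the enzyme, was at 0.44, 0.13 and 0.08 with mesenchymal RNA in Cy5 and 0.78, 0.92 and 0.60 with it in Cy3. All 6 arrays were above 0. The mean was 0.49 ± 0.14 (SD, n = 3; 95% interval 0.29 to 0.69; limma adjusted p = 0.0155), with the mesenchymal spot saturated on 3 arrays. The call was lost without culture 2 (adjusted p = 0.0785) and without culture 3 (0.0649). The catalytic alpha subunit Atp5a1 had probes at -0.13 ± 0.14, which was dim, and 0.10 ± 0.27. Of the 3 genes for the rotor ring subunit c, Atp5g1 was at 0.20 ± 0.34, while Atp5g2 and Atp5g3 were at -0.01 and -0.03 with saturation. The Atp5g3 probe is named Idh2 in the other version of the annotation, used on 1 array, so its gene is uncertain. Atp5f1, now called Atp5pb, had probes at 0.07 ± 0.06 and 0.25 ± 0.10, and neither passed. Atp5j and Atp5j2, peripheral and membrane parts of the enzyme, were at 0.09 ± 0.12 and 0.22 ± 0.25, each below 0 in culture 3.

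The dye effect is the part of a probe's ratio that follows the dye and cancels in the mean of the 2 arrays of a culture. It was larger in size than the log2 ratio for 35 of the 44 members, beside 14238 of all 20185 probes tested. Among probes saturated on no array it was larger for 15 of 21 members, beside 13750 of 19486 probes. The dye effect passed its own test for 33 of the 44 probes, 14 toward Cy5 and 19 toward Cy3, where 57.7% of all probes passed it. Over all probes 5430 passed toward Cy5 and 6208 toward Cy3. Of the 14 member probes toward Cy5, 9 were the probes saturated for 1 or both RNAs on all 6 arrays, whose values the ceiling sets. Among the 21 members saturated on no array 15 passed the dye test, 5 toward Cy5 and 10 toward Cy3, beside 11209 of 19486 such probes on the array. Those 11209 were 5167 toward Cy5 and 6042 toward Cy3. The dye effect is given below as Cy5 over Cy3. It was largest for Cox6c (-1.49), followed by an Ndufc1 probe (-1.23) and Cycs (-1.20). Cox6c, an accessory subunit of complex IV, was at -0.82, -1.19 and -1.55 with mesenchymal RNA in Cy5 and at 1.93, 1.61 and 1.82 with it in Cy3. Its mean over both orientations was 0.30 ± 0.22 and did not pass the test, and its mesenchymal spot was saturated on 3 arrays and its epithelial spot on 2. In complex I 10 of the 12 called dye effects were toward Cy3, beside 6208 of 11638 over all probes. The complex I medians of the orientations lay on opposite sides of 0, at -0.10 with mesenchymal RNA in Cy5 and 0.61 with it in Cy3. Over all probes these medians were 0.0064 and -0.0076.

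**Figure D3:**
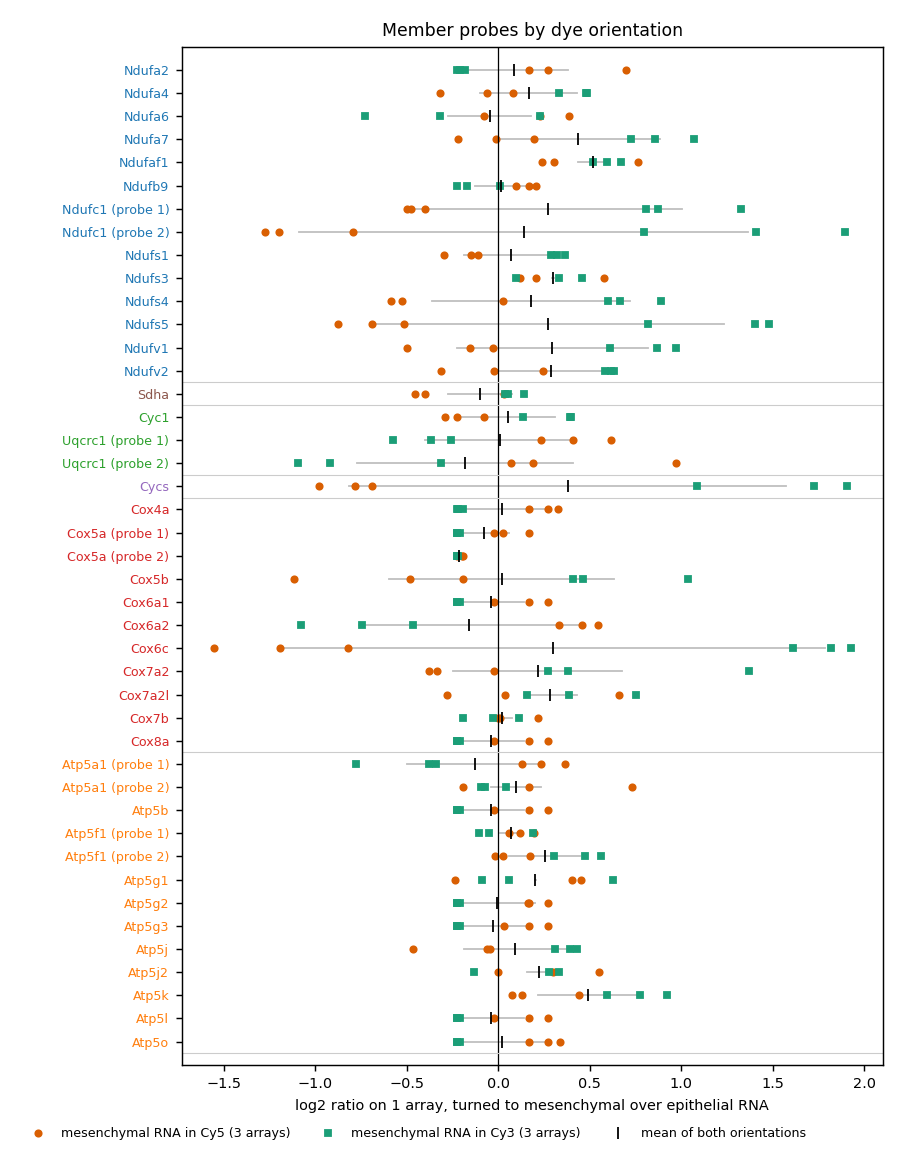
Log2 ratio on single arrays, turned to mesenchymal over epithelial RNA (x axis), for 43 of the 44 member probes (y axis), with circles for the 3 arrays with mesenchymal RNA in Cy5, squares for the 3 with it in Cy3, a grey line between the means of the orientations and a black bar for the mean of both. For Cox6c, Cycs and Ndufc1 the orientations lie on opposite sides of 0, while Ndufaf1 and Atp5k are above 0 on all 6 arrays.

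The name rule missed genes of these name families that the array lists under clone or other names. Ndufaf2, Ndufaf3, Ndufaf4, Ndufaf5, Cox10, Cox14 and Cox15 among them are, like Ndufaf1, no part of the finished enzymes. Through gene IDs, accessions and synonyms of RefSeq, 36 further probes for 32 genes were found, a set put together after values had been seen and so described without support from its counts. Of these, 9 rose and 2 fell, with a median of 0.15, beside the 5.6% of all probes that rose and the 5.66% that fell. Ndufaf5 was among the risen, with 3 arrays above 0 and 3 below, and a Cox10 probe among the fallen. Leaving out culture 1 gave 16 that rose, leaving out culture 2 gave 5, leaving out culture 3 gave 4, and the fit gave 0 without pairing the RNAs of a culture. Ndufb2 was at 0.74 ± 0.17, Ndufb7 at 0.68 ± 0.20 and Ndufb10 at 0.45 ± 0.13, all accessory subunits of complex I. Sdhb, the iron-sulfur subunit of complex II, rose by 0.39 ± 0.12, while Sdha did not pass. Ndufb7 and Ndufb10 were above 0 on all 6 arrays, and Ndufb2 and Sdhb on 5. Cox6b1 was at 0.59 ± 0.17, and Uqcrfs1, the Rieske protein, at 0.37 ± 0.26 without passing. The means of Cox6b1 and Uqcrfs1 were -0.54 and -1.12 with mesenchymal RNA in Cy5, and 1.71 and 1.87 with it in Cy3. A probe that the file calls LOC227197, with the gene ID of Ndufs1, was below 0 on all 6 arrays at -1.81 ± 0.10, while the member probe named Ndufs1 was at 0.07. The other probe that fell, named AU042636 in the file, has a synonym of Cox10 and was at -0.34. The Ndufs1 probes disagree, and which reports the gene cannot be told from the files.

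Other mitochondrial lists give the members a setting. The shares of all probes tested to set beside their counts are 5.6% that rose and 5.66% that fell. Of 62 mitochondrial ribosome probes 22 rose (35.5%) and none fell, with a median log2 ratio of 0.25. That median was 0.09 with mesenchymal RNA in Cy5 and 0.40 with it in Cy3. Both probes of Mrpl45 were among the risen, at 0.74 and 0.65. Mrpl13, Mrpl30, Mrpl32 and Mrps36, also among them, were each above 0 on 3 arrays and below 0 on 3. Of the 62 probes, 13 were above 0 on all 6 arrays. Leaving out culture 1 gave 33 that rose, leaving out culture 2 gave 5 and leaving out culture 3 gave 2. Of 18 probes of the vacuolar ATPase, a proton pump of lysosomes and not of mitochondria, 8 rose and none fell, with a median of 0.50, and Atp6v1d was at 1.23 ± 0.15 and Atp6v0b at 1.07 ± 0.43. Leaving out 1 culture gave 7 to 11 that rose there. Of 14 assembly factor probes 3 rose (21.4%) and none fell. They were led by Surf1 (0.85 ± 0.15) and the probe of Coa3 (0.68 ± 0.21), factors for complex IV. Surf1 was above 0 on all 6 arrays. Coa3 was above 0 on 3 arrays and below 0 on 3, with a dye effect of -1.35. Without culture 3 only 1 of the 14 rose, while without culture 1 there were 3 that fell.

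Of 29 probes of the tricarboxylic acid cycle, pyruvate dehydrogenase and its kinases, 3 rose (10.3%) and 2 fell (6.9%). Over all probes 5.6% rose and 5.66% fell. The cycle enzyme Idh2 was at 0.54, and those that fell were Pdk3 (-0.46), a kinase of pyruvate dehydrogenase, and Dlat (-0.39), a subunit of it. Without culture 2 or without culture 3 none of that list passed, and without culture 1 there were 10 that rose and 5 that fell. Of 19 probes of other electron and metabolite carriers 4 rose (21.1%) and none fell. The risen carrier probes all belonged to Gpd2 and Coq4. A Gpd2 probe was at 0.59 with a dye effect of -1.55, and 3 arrays were above 0 and 3 below. Another Gpd2 probe was at 0.50 ± 0.10 with a dye effect of -0.26, and all 6 arrays were above 0. The number that rose was 1 without culture 2 and 0 without culture 3, and without culture 1 there were 4 that fell. Of 23 glycolysis probes 2 rose and 2 fell (8.7% each, near the shares of all probes), with Hk1 at 0.94 and 1 of 2 Gpi1 probes at -0.50. Of the 23, 9 (39.1%) were saturated on at least 1 array. Pgam1, Pkm and a Gapdh probe were saturated for both RNAs on all 6 arrays, so they have no measured fold. The median of the glycolysis list, -0.04, is the value of such probes. There 1 rose and 1 fell without culture 2, 1 rose and 0 fell without culture 3, and 3 rose and 6 fell without culture 1. None of 22 probes of the regulators of mitochondrial biogenesis passed the test by limma, while without culture 1 there were 3 that rose and 2 that fell. These lists were not compared with the members by any test.

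**Figure D4:**
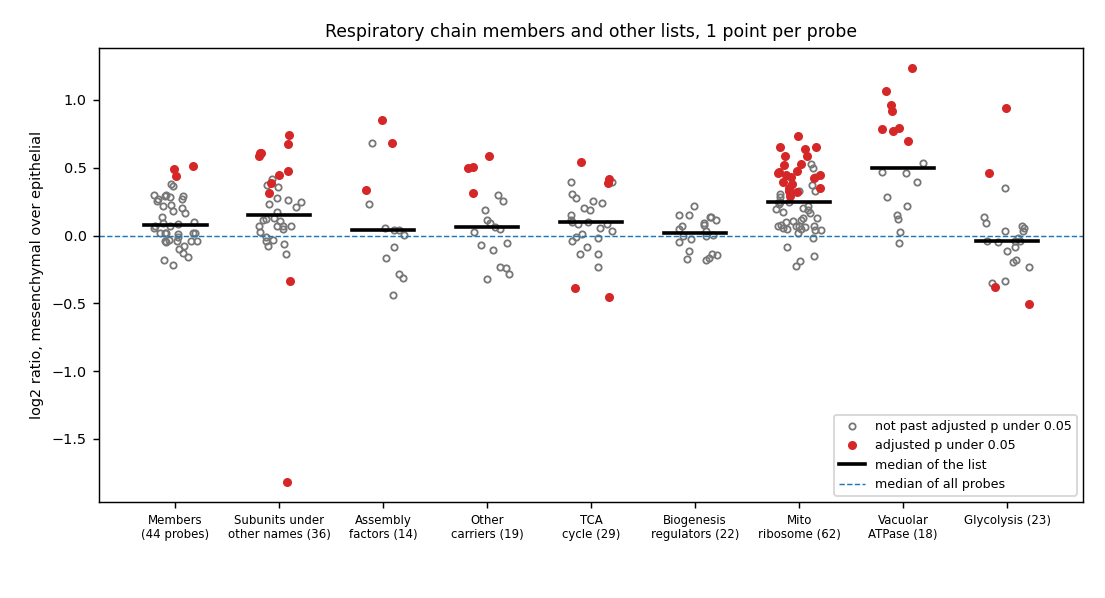
Log2 ratio of mesenchymal over epithelial RNA (y axis) for every tested probe of the members and of 8 other sets (x axis, number of probes in brackets), with red for adjusted p under 0.05 and a black bar for the median. The members' median is 0.08 (0.18 over the 21 saturated on no array), and the medians of the vacuolar ATPase, 0.50, and of the mitochondrial ribosome, 0.25, are above that of all probes (dashed). The glycolysis median, -0.04, is the value of probes saturated for both RNAs on all 6 arrays.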

How the data were processed

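RNA of 3 cultures was measured on 6 two-colour Agilent arrays. Per the file headers, the deposited intensities are the scanner's spot means and local backgrounds. The deposited table of the authors gives log10 ratios, which match the turned mean of a culture's 2 arrays; the submitters' processing notes list limma. In limma 3.58.1 (R 4.3.3), the deposited intensities were corrected by normexp (offset 50) and turned into log2 ratios by loess, control spots at weight 0. The 2 arrays of a culture were averaged as mesenchymal over epithelial, so n = 3. Control and outlier-flagged spots and dim probes (well above background on under 4 of 6 arrays) were left out; saturated spots were kept. Each probe was tested against 0 with limma, at adjusted p under 0.05. Named genes were those called or brightest in each complex, core subunits and isoform groups, genes with 2 probes and the largest dye effects. Added after their values were seen were Ndufa2, Ndufa4, Ndufa6, Ndufb9, Ndufs3, Ndufs4, Ndufs5 and Ndufv2. So were Cox5b, Cox7b, Atp5j, Atp5j2, Atp5o, Dlat, further mitochondrial ribosome genes and other genes listed under other names. Members and lists were chosen with earlier results of these data known; 2 promoter motifs were chosen after the promoters had been read. In simulated data of 20185 probes, 100 were changed by 0.5 and 100 by 1 on the log2 scale, and 2% and 53% of them were recovered. In the real data 1130 probes rose and 1142 fell. With fewer changed probes the adjusted threshold was stricter in the simulation, so its recovery does not carry over to the members. The number of arrays limits the precision. The values of 1 member are not reported here, and it is left out of the plots that name probes; counts and medians include it.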

Additional observations from a re-analysis of the deposited data

How the results depend on the processing

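The 3 risen and 0 fallen members were also found under Agilent's processed signals, no background correction, median centring, either filter on dim probes, outlier-flagged spots kept and the authors' value table. With saturated probes left out 1 rose and the median became 0.18, on 21 probes. At adjusted p under 0.01 none rose, with 439 of all probes higher and 524 lower. With a variance trend and robust estimation together 720 of all probes were higher. With the 6 arrays, a dye term and culture as a random block, 4 members rose and 1 fell. Of all 20185 probes, 1401 were higher and 1403 lower in that fit. Adding the genes listed under other names, assembly factors among them and chosen after seeing the data, gave 12 risen and 2 fallen. Each ratio pairs the RNAs of a culture; with no replicate block 0 members rose, and 115 of all probes were higher and 141 lower. Leaving out 1 culture gave 0 to 13 risen members, 0 to 4 fallen, 376 to 3271 of all probes higher, 433 to 2604 lower and 21 to 34 members with a dye effect. The 13, 4, 3271 and 2604 came from the fit without culture 1, where among the members adjusted p followed the size of the mean alone. No slide or scan date block was run, since each array is its own slide.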
